A study of Homo sapiens with 8 samples.

Results

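The ETS family transcription factors ETS1, ETS2, ELF1, ELF3, ELF4, ELK3, ETV1, ETV4, ETV5 and ETV6 were followed in MDA-MB-231 cells with and without TGFβ. Members were taken by name: every probe set that the platform annotation assigned to 1 of these 10 genes was kept. This gave 32 probe sets of 54613 tested, and 10 of 19775 genes. There were 3 probe sets for ETS1, 3 for ETS2, 2 for ELF1, 3 for ELF3, 2 for ELF4, 2 for ELK3, 5 for ETV1, 2 for ETV4, 5 for ETV5 and 5 for ETV6, and none of them named a further gene.

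MDA-MB-231 is a human line from a metastatic breast cancer. All cells of both groups carried a retroviral small-hairpin RNA against GFP, which serves as a control hairpin, and all were kept without serum for 24 h. The untreated group had 4 arrays; the TGFβ group had 4 arrays of cells given TGFβ for 3 h at a labelled dose of 5 µg/ml, and since TGFβ is usually dosed in ng/ml the unit is uncertain. The series asks which genes TGFβ and mutant p53 control jointly; the arrays with p53 depletion were not analysed here. Both groups carried the letters A to D as biological replicates of 1 cell line, and p-values cover no more than the spread between these 8 arrays.

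ETS factors share a winged helix-turn-helix domain that binds DNA around a GGAA core, and they differ in partners and in their ties to signalling. Phosphorylation by ERK raises the activity of ETS1, ETS2 and the ETV1, ETV4 and ETV5 subfamily, and converts ELK3 from a repressor into an activator, whereas ETV6 is a repressor. In breast and other carcinoma cells ETS1 and the ETV1, ETV4 and ETV5 subfamily are known for driving proteases and other genes of invasion, and ELF3 for an epithelial programme.

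Values are RMA signals on a log2 scale, 1 per probe set and array, so a difference of 1 is a doubling of signal; signals of different probe sets have no common scale and are not set against each other. The array medians lay between 4.62 and 4.66. SMAD7, an inhibitory SMAD that TGFβ induces, was 5.51, 6.50, 6.01 and 5.88 on untreated arrays A to D and 7.28, 7.99, 7.97 and 7.89 on TGFβ arrays A to D, a rise of 1.81 ± 0.21 (SE, n = 4 per group, limma with Benjamini-Hochberg adjustment over genes, adjusted p = 0.0039), and 1.98 ± 0.19 without TGFβ array A. TGFβ array A stood apart in a control of RNA integrity: its 3′ minus 5′ signal for ACTB was 1.68 against 0.63 to 0.89 on the other 7 arrays, and for GAPDH 0.54 against 0.06 to 0.14. Values without that array are given beside the member results that it moved most. Of the markers of mesenchymal-type breast cancer lines, 6 of 6 were measured, 1 rose and 0 fell, where 0.576% of all genes passed in the same fit. TGFBI rose by 1.56 ± 0.16 (SE, limma adjusted p = 0.00179), and VIM was at 13.64 ± 0.12 untreated and 13.65 ± 0.11 with TGFβ (SD, n = 4). Of the 8 luminal markers 1 rose and 1 fell, against the same 0.576% of all genes. ERBB3 fell by 0.96 ± 0.15 (SE, limma adjusted p = 0.0206), a sign shared by 2 of its 5 probe sets. CDH1 was at 4.08 ± 0.11 untreated, below the array medians, and rose by 0.90 ± 0.11 (SE, limma adjusted p = 0.00579). The remaining luminal markers did not pass. Untreated, KRT19 was at 11.47, KRT8 at 9.72, EPCAM at 8.39, GATA3 at 7.57, ESR1 at 5.76 and PGR at 3.12. The summed level (log2 of the summed linear signals) of the 4 measured leukocyte markers was 7.11 to 7.77 on untreated and 7.12 to 7.59 on TGFβ arrays. That of the 4 endothelial markers was 7.92 to 8.17 and 7.61 to 7.88. PECAM1 made the endothelial sums differ most, at 7.59 ± 0.16 and 7.16 ± 0.18 (-0.43 ± 0.12, limma adjusted p = 0.207, and 0.0155 with the letter as a block). TEK ran from 5.32 to 5.73, above the array medians, while CDH5 and VWF stayed at or below 3.40 and 4.61. No marker was at 0, and the part of these markers in the member values was not tested.

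No member passed the test in the fit that leaves the letter out: 0 of 32 probe sets had an adjusted p under 0.05 (limma, Benjamini-Hochberg over all probe sets), where 0.256% of all probe sets did. At an unadjusted p under 0.05 there were 9 of the 32, against 7.44% of all. With the letter entered as a replicate block, 8 of 32 passed, 5 higher and 3 lower after TGFβ, against 1.75% of all probe sets. These 8 belonged to ETS1, ETS2 and ELK3, which were higher, and to ETV1, which was lower. The backgrounds by direction were 0.758% for higher and 0.989% for lower. The block calls depended on the letters: without both arrays of letter A, B, C or D, 7, 0, 1 and 1 member probe sets passed, where 2.59%, 0.516%, 0.712% and 0.703% of all probe sets did. Over the 32 probe sets the median log2 change was 0.02, against 0.01 over all probe sets, with 18 above 0 and 14 below. The calls of the block fit thus lay in 4 of the 10 genes, in opposite directions.

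**Figure D1:**
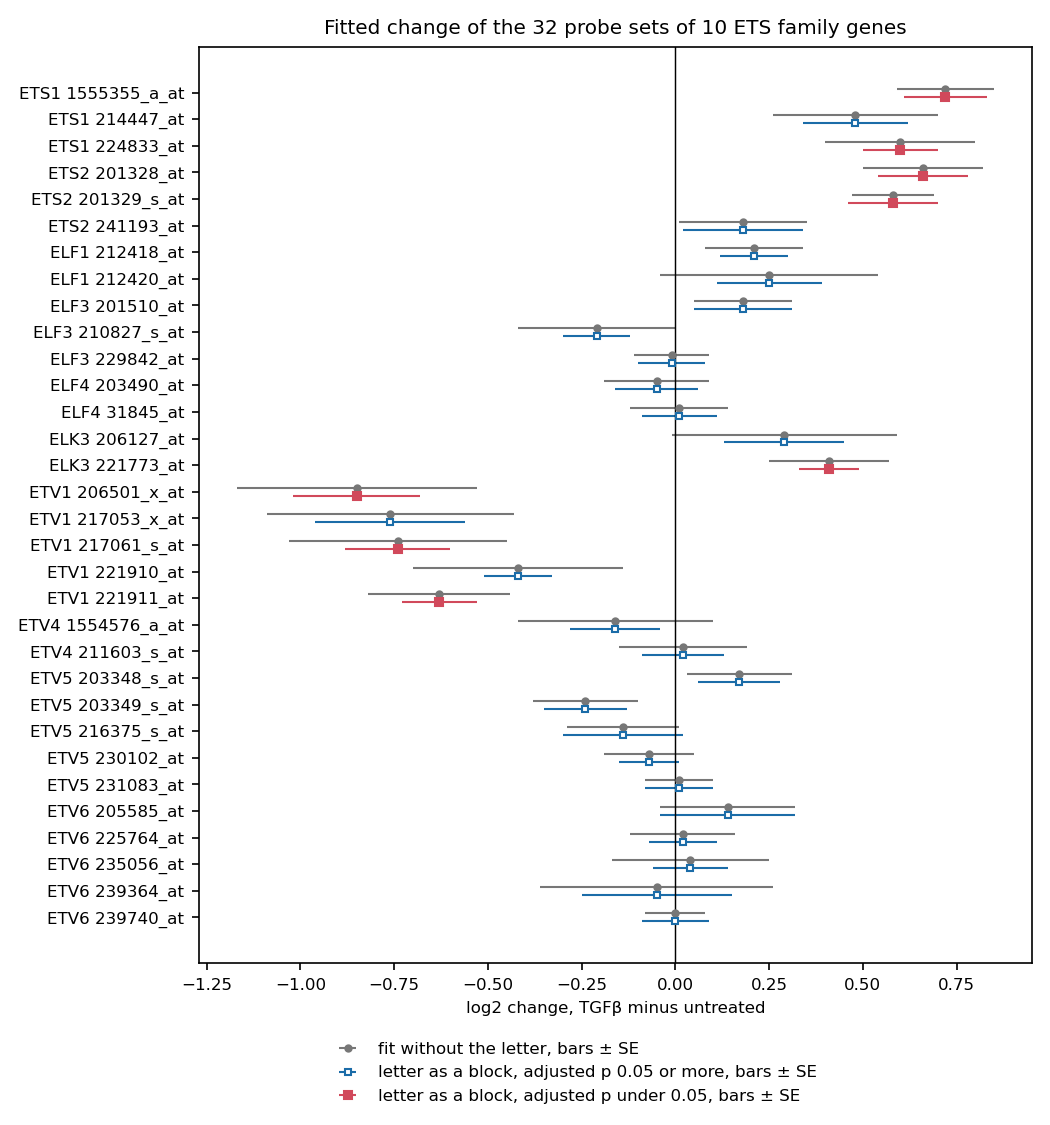
Fitted log2 change (x axis, TGFβ minus untreated) of the 32 probe sets of the 10 ETS genes, 1 line each; grey circles with SE bars are the fit without the letter, squares the block fit, red where the adjusted p was under 0.05. The 8 red squares are those of ETS1, ETS2 and ELK3 to the right of 0 and of ETV1 to the left, and the other 6 genes lie between -0.24 and 0.25.

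ETS1 (Entrez Gene 2113, chromosome 11) is the founding member of the family, an activator that cooperates with AP-1 on protease promoters. On probe set 1555355_a_at it was 8.07, 8.14, 8.08 and 8.17 on untreated arrays A to D and 8.45, 9.03, 8.98 and 8.87 on TGFβ arrays A to D. Every TGFβ array was above every untreated array, with TGFβ array A the lowest of its group. The difference was 0.72 ± 0.13 (SE, n = 4 per group, 1.65-fold), with an adjusted p of 0.0632 in limma without the letter and 0.0137 with the letter as a block. Without TGFβ array A the difference was 0.85 ± 0.09 and passed without the block (adjusted p = 0.00579).

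On ETS1 probe set 224833_at the signals were 10.33, 10.34, 9.90 and 10.05 without TGFβ and 11.18, 11.03, 10.26 and 10.55 with it. The groups overlapped because TGFβ array C lay below untreated arrays A and B, while within each letter the TGFβ array was higher by 0.36 to 0.85. The difference of 0.60 ± 0.20 (SE) had a limma adjusted p of 0.443 without the letter and 0.0238 with it as a block; here TGFβ array A was the highest, and the difference without it was 0.46 ± 0.19. The third ETS1 probe set, 214447_at, ran from 5.64 to 6.14 untreated and from 5.80 to 6.86 with TGFβ. It was higher in all 4 letters, by 0.13 to 0.86, and passed in neither fit (0.48 ± 0.22, adjusted p = 0.676, and 0.152 with the block). Without TGFβ array A its difference was 0.69 ± 0.17 (limma adjusted p = 0.169). The 3 probe sets of ETS1 thus had 1 sign, and 2 of them rose in the block fit. The sizes did not go together across letters. Over the 4 within-letter differences Pearson r was -0.70 between the 2 that rose, and 0.36 and 0.04 for the other pairs (a description).

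ETS2 (2114, chromosome 21) is the closest relative of ETS1 and is likewise activated by ERK. On probe set 201329_s_at it was 6.87, 6.67, 6.55 and 6.73 untreated and 7.05, 7.34, 7.39 and 7.36 with TGFβ. The groups did not overlap, and TGFβ array A again lay lowest of its group, 0.17 above its untreated partner where the others were 0.63 to 0.84 above theirs. The difference was 0.58 ± 0.11 (SE, 1.49-fold; limma adjusted p = 0.0824 without the letter, 0.0449 with the block). Without TGFβ array A it was 0.66 ± 0.10 with an adjusted p of 0.0303. On probe set 201328_at ETS2 was 6.87, 6.13, 6.34 and 6.56 untreated and 7.39, 7.07, 7.20 and 6.88 with TGFβ. These groups lay next to each other without overlap, the highest untreated array being A at 6.87 and the lowest TGFβ array D at 6.88. The difference was 0.66 ± 0.16 (1.58-fold; limma adjusted p = 0.224, and 0.0274 with the block). The third probe set, 241193_at, stayed between 2.88 and 3.71 and outside the upper 60% of signals; it was higher in 2 letters and lower in 2. With 1 probe set per gene, the one with the highest mean, ETS2 had the smallest p of the 10 genes, just above the threshold (limma, adjusted p = 0.0505 over 19775 genes) and below it with the block (0.0177).

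Groups without overlap were thus found for 3 of 32 member probe sets, 1 of ETS1 and 2 of ETS2, all with TGFβ higher; 4.75% of all probe sets had no overlap, 2.79% with TGFβ higher and 1.97% with TGFβ lower.

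The ETS2 promoter is shown because both of its probe sets in the upper 60% of signals had every TGFβ array above every untreated one. It is given as the 250 bases before the outermost transcript start, from RefSeq on GRCh38.p14, chr21:38804933-38805182, plus strand. Capitals mark the ETS core GGAA (TTCC on the other strand) and the SMAD-type element GTCT (AGAC on the other strand).
ETS2: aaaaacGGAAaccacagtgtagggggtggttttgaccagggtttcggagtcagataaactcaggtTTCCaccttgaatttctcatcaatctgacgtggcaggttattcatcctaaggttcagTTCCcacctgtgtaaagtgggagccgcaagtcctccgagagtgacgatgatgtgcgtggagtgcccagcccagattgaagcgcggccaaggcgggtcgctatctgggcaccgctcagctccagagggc
The window held 3 GGAA cores and 0 GTCT elements, the marked motifs share no base, and 0 matches of the AP-1 element TGANTCA were found on either strand. Of the 35116 promoter windows of this length in the table, 92.7% held a GGAA, with a median of 3, 77.5% a GTCT and 6.57% a TGANTCA. A match is a string of letters and not a site.

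ELK3 (2004, chromosome 12), also called Net, is a ternary complex factor that binds with SRF at serum response elements. On probe set 221773_at it was 9.97, 10.39, 9.86 and 9.94 untreated and 10.34, 10.85, 10.21 and 10.42 with TGFβ. The groups overlapped, since array B was the highest in each, but the 4 within-letter differences were close to each other, between 0.36 and 0.48. The difference of 0.41 ± 0.16 (SE, 1.33-fold) had a limma adjusted p of 0.571 without the letter, and 0.047 with the letter as a block, where its SE was 0.08. The other probe set, 206127_at, ran from 5.91 to 6.73 untreated and from 5.63 to 7.09 with TGFβ. It was higher in 3 letters and lower by 0.28 in letter A, and it passed in neither fit (0.29 ± 0.30, and 0.60 ± 0.19 without TGFβ array A).

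The ELK3 promoter, chr12:96194125-96194374 on the plus strand of GRCh38.p14 (RefSeq), is printed for comparison with that of ETS2, with the same capitals.
ELK3: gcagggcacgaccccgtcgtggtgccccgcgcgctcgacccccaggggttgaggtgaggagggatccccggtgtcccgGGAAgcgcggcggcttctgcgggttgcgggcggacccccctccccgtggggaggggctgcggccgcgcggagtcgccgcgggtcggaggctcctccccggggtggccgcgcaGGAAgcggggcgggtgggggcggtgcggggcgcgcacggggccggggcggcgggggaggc
It held 2 GGAA cores and 0 GTCT elements, and 82.0% of its bases were G or C, against 54.4% in the ETS2 window.

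ETV1 (2115, chromosome 7), also called ER81, belongs with ETV4 and ETV5 to the PEA3 subfamily. On probe set 221911_at it was 10.48, 10.96, 10.44 and 10.60 untreated and 9.58, 10.52, 9.89 and 9.96 with TGFβ. The TGFβ array was lower in every letter, by 0.44 in B to 0.89 in A, while TGFβ array B at 10.52 lay above untreated arrays A and C, so the groups overlapped. The difference was -0.63 ± 0.19 (SE, a 1.55-fold lower signal), with a limma adjusted p of 0.374 without the letter and 0.0162 with the letter as a block. On probe set 206501_x_at ETV1 was 8.31, 9.03, 8.53 and 8.67 untreated and 6.71, 8.48, 8.0 and 7.94 with TGFβ. TGFβ array A was by far the lowest there. The difference was -0.85 ± 0.32 (1.81-fold lower; limma adjusted p = 0.551, and 0.0411 with the block).

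All 5 ETV1 probe sets were lower after TGFβ in each of the 4 letters. Probe set 217061_s_at differed by -0.74 ± 0.29 and fell in the block fit (limma adjusted p = 0.0407). Probe sets 217053_x_at (-0.76 ± 0.33, adjusted p with the block 0.121) and 221910_at (-0.42 ± 0.28, 0.0619) passed in neither fit. These probe sets also moved alike across arrays, with Pearson correlations over the 8 arrays between 0.75 and 0.99 (median 0.90 of 10 pairs). They measure 1 gene on the same arrays, so this is a description with no test. The 4 within-letter differences of 221910_at, however, ran against those of the other ETV1 probe sets (r = -0.55 to -0.41). Part of the size came from TGFβ array A: within letter A the differences were -1.59, -1.71 and -1.36 on 206501_x_at, 217053_x_at and 217061_s_at, against -0.37 to -0.73 in the other letters. Without TGFβ array A the 5 differences ranged from -0.50 to -0.27, that of 206501_x_at being -0.50 ± 0.19, that of 217053_x_at -0.37 ± 0.14 and that of 217061_s_at -0.43 ± 0.18. That array also had the raised 3′ to 5′ control signals; the part of RNA integrity in its ETV1 signals was not tested.

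At the level of genes ETV1 had a limma adjusted p of 0.271 without the letter and 0.005 with the block. Of the 4 block fits that each leave out both arrays of 1 letter, ETV1 passed in 4, adjusted over genes (limma adjusted p 0.00448 to 0.0288). ETS1 passed in 3, all but that without letter B, and ETS2 and ELK3 in 1 each, that without letter A. Of all 19775 genes 1304, 288, 321 and 356 passed without A, B, C and D. Adjusted over all probe sets instead, ETV1 221911_at passed in 1 of the 4 (limma adjusted p 0.0249 to 0.0848). In the same way ETS1 224833_at passed in 2, ETS2 201329_s_at in 1 and ELK3 221773_at in 0. In all, 4 of 10 member genes passed with the block, against 3.57% of all genes (3 higher against 1.39%, 1 lower against 2.18%), and 0 of 10 without it, against 0.576%.

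The ETV1 promoter is the window of the member with 3 probe sets that fell in the block fit, chr7:13991426-13991675 on the minus strand of GRCh38.p14 (RefSeq), with capitals as above.
ETV1: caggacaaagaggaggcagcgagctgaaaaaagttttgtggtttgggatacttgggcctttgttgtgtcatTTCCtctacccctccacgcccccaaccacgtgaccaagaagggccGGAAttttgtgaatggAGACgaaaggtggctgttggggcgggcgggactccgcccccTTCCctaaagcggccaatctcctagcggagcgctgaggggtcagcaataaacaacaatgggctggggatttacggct
It held 3 GGAA cores, 1 of them within a CCGGAA, a form found in 14.5% of all windows, and 1 AGAC. RefSeq gives ETV1 6 start windows, and 3 of them hold a CCGGAA. Of the 10 members 7 were in the promoter table.

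**Figure D2:**
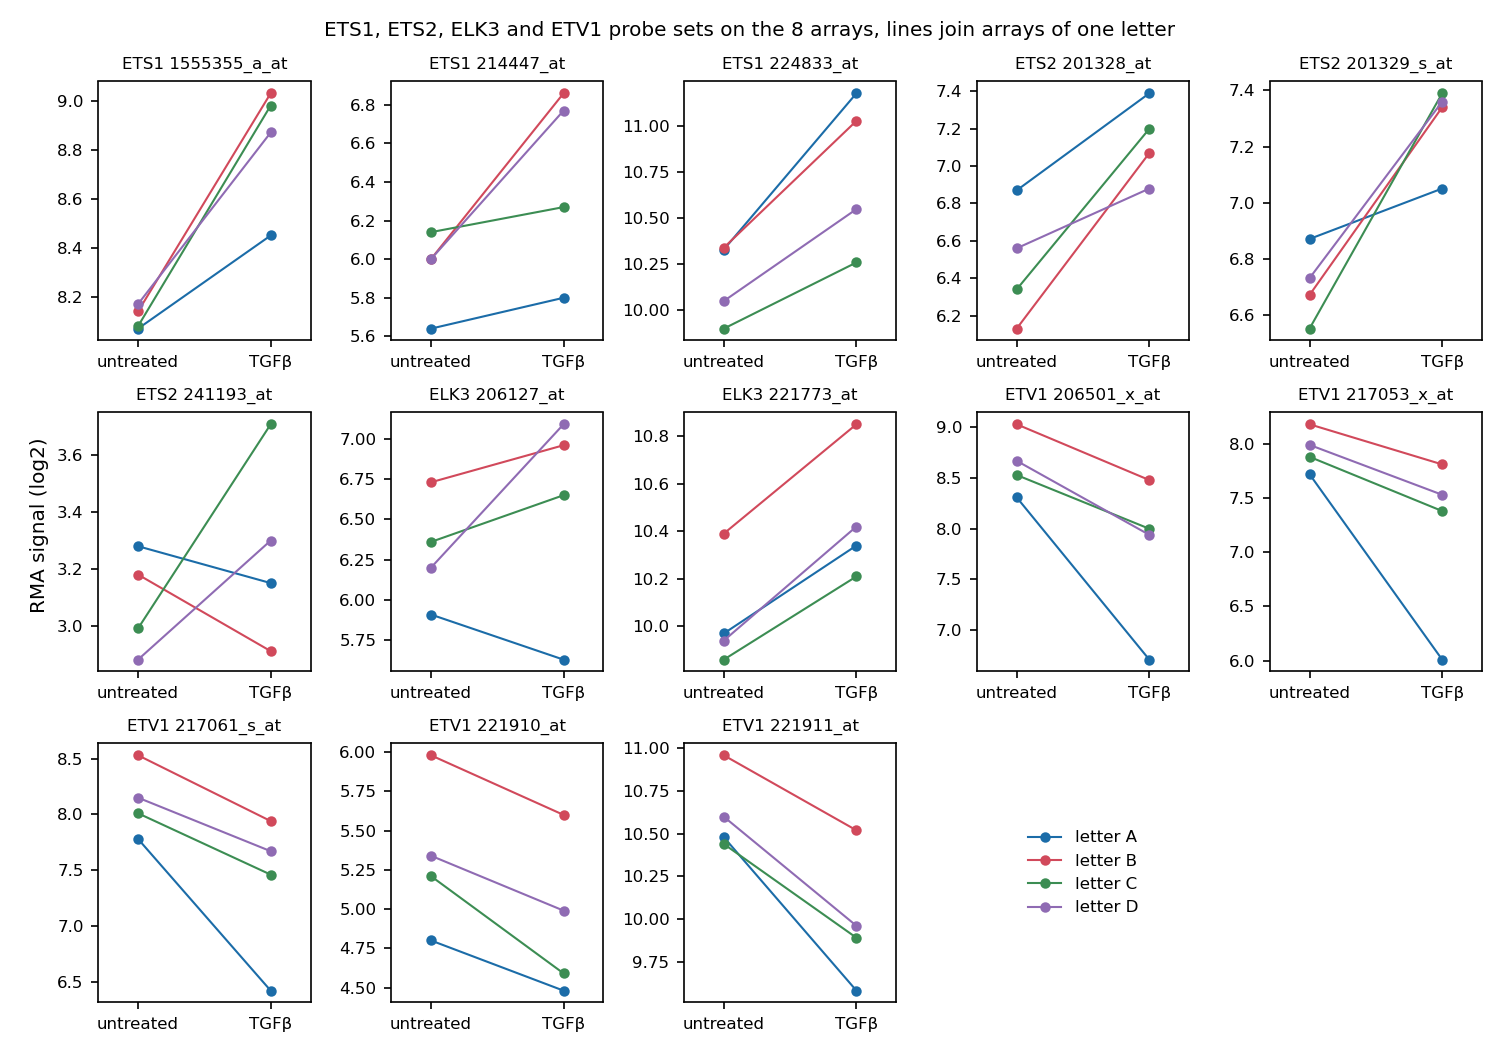
RMA signal (y axis, log2, own scale in each panel) of the 13 probe sets of ETS1, ETS2, ELK3 and ETV1 on untreated and TGFβ arrays; each line joins the arrays of 1 letter. All lines of the 3 ETS1 probe sets slope up and all lines of the 5 ETV1 probe sets slope down, with letter A in blue the steepest on 206501_x_at, 217053_x_at and 217061_s_at.

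ETV4 (2118, chromosome 17), also called PEA3, had 2 probe sets that differed in sign. On 1554576_a_at it ran from 7.89 to 8.53 untreated and from 7.40 to 8.66 with TGFβ (-0.16 ± 0.26, 95% interval -0.73 to 0.41), and its difference was 0.08 ± 0.20 without TGFβ array A. On 211603_s_at it ran from 7.15 to 7.52 and from 6.96 to 7.77 (0.02 ± 0.17, interval -0.35 to 0.40). The groups overlapped on both probe sets. In the fit without the letter the first interval leaves room for a decrease as large as that of ETV1 221911_at, and the second does not. With the letter as a block the SEs were smaller, 0.12 and 0.11, and no interval was computed.

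ETV5 (2119, chromosome 3) had probe sets that disagreed. Probe set 203349_s_at was 8.58, 8.81, 8.65 and 9.19 untreated and 8.54, 8.40, 8.64 and 8.67 with TGFβ, a difference of -0.24 ± 0.14 (interval -0.55 to 0.06; limma adjusted p = 0.761, and 0.39 with the block). Probe set 203348_s_at was 8.61, 8.19, 8.21 and 7.91 untreated and 8.43, 8.48, 8.43 and 8.26 with TGFβ, a difference of 0.17 ± 0.14 (interval -0.14 to 0.48; 0.85, and 0.557 with the block). Across the 8 arrays these 2 probe sets ran against each other (Pearson r = -0.87, a description), most clearly on untreated array D, the highest on one and the lowest on the other. The remaining 3 probe sets of ETV5 differed by -0.14 to 0.01, and all 5 had overlapping groups, so these arrays give ETV5 no single direction. Within the PEA3 subfamily, ETV1 alone had a probe set that passed in either fit; the differences between ETV1 and its relatives were not tested.

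ELF1 (1997, chromosome 13), an activator best known from lymphoid cells, was higher on both probe sets without passing. On 212418_at it was 7.73, 8.02, 7.82 and 7.94 untreated and 7.95, 8.45, 7.95 and 7.99 with TGFβ, higher in all 4 letters by 0.06 to 0.42. The difference was 0.21 ± 0.13 (interval -0.08 to 0.49; limma adjusted p = 0.793, and 0.388 with the block). On 212420_at the difference was 0.25 ± 0.29, with array A lower by 0.24 and the other letters higher by 0.11 to 0.57. It was 0.56 ± 0.19 without TGFβ array A and 0.05 ± 0.28 without TGFβ array B, and passed in neither (adjusted p = 0.376 and 0.966).

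ELF3 (1999, chromosome 1), the epithelial ETS factor, was lower within every letter on 210827_s_at, by 0.07 to 0.30, from 6.57, 5.78, 5.87 and 6.18 to 6.38, 5.71, 5.58 and 5.89. The spread between letters was wider than this difference of -0.21 ± 0.21, which passed in neither fit (limma adjusted p = 0.881, and 0.339 with the block). Without TGFβ array A it was -0.38 ± 0.18 (adjusted p = 0.624). Its other probe sets, 201510_at and 229842_at, stayed at or below 3.90 and lay outside the upper 60% of signals.

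ELF4 (2000, chromosome X), an activator related to ELF1, and ETV6 (2120, chromosome 12), a repressor known from leukaemia fusions, showed the smallest differences. ELF4 on 31845_at ran from 8.15 to 8.65 untreated and from 8.19 to 8.61 with TGFβ, and its 2 probe sets differed by -0.05 and 0.01 (intervals -0.37 to 0.26 and -0.28 to 0.30). They followed each other closely across the arrays (r = 0.98). ETV6 differed by -0.05 to 0.14 on its 5 probe sets, the widest interval being -0.74 to 0.65 on 239364_at. On that probe set TGFβ array A was at 5.32 and the other 7 arrays were between 6.23 and 6.99. Without TGFβ array A the differences of the 5 ETV6 probe sets ran from -0.02 to 0.33, the latter on 239364_at (± 0.14, adjusted p = 0.556). In the fit without the letter the intervals of ELF4 and of ETV6 probe set 225764_at exclude a change as large as the 0.41 of ELK3. Those of ETV6 205585_at, 235056_at and 239364_at do not. With the letter as a block the SEs of these 3 were 0.18, 0.10 and 0.20, and no interval was computed. ETV6 239740_at was at 4.65 in both groups, where the array medians were 4.62 to 4.66. Without detection calls such a signal cannot be told from background, so its narrow interval excludes no change of ETV6.

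**Figure D3:**
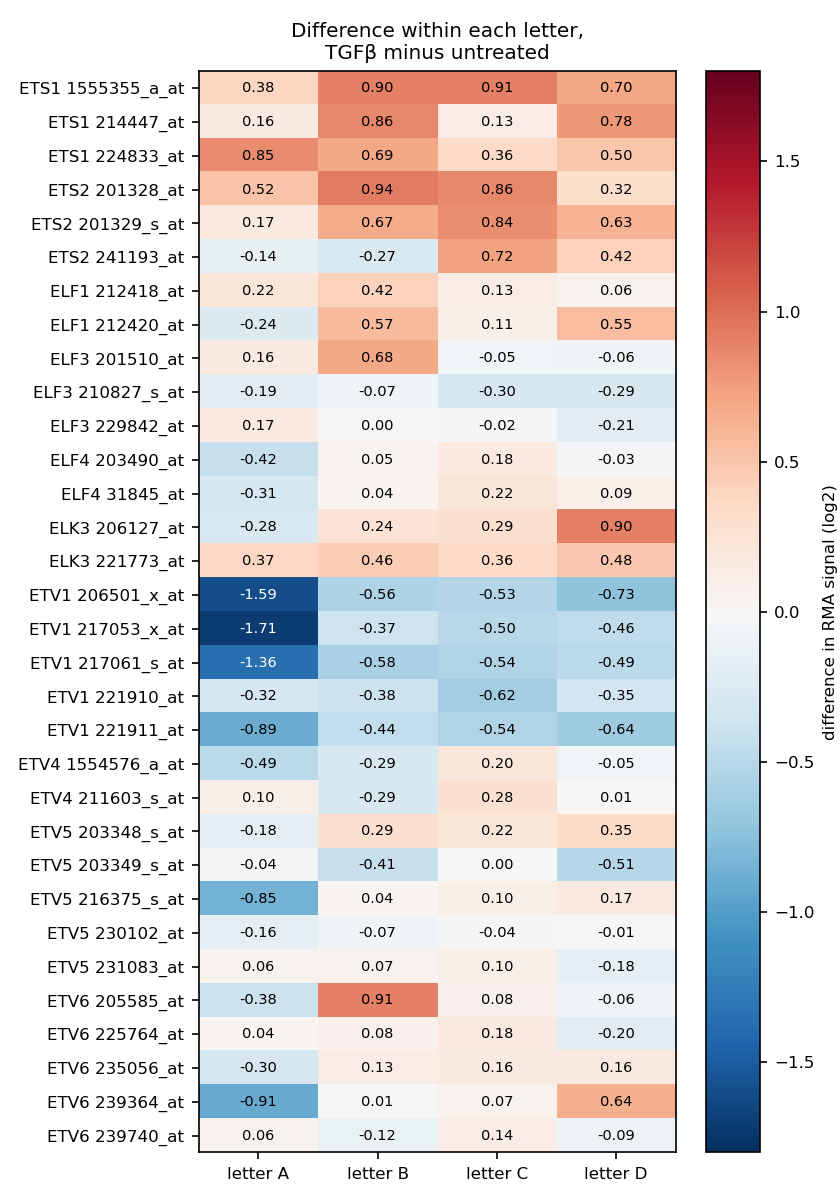
Difference in RMA signal (log2, TGFβ minus untreated) within each replicate letter for the 32 probe sets; red cells are higher and blue cells lower after TGFβ. The 7 rows with all cells above 0 are 3 of ETS1, 2 of ETS2, 1 of ELF1 and 1 of ELK3, and the 5 ETV1 rows are below 0 throughout, darkest in letter A on 4 of them and in letter C on 221910_at.

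Within letters, 15 of 32 member probe sets had 1 sign in all 4 letters, 7 higher and 8 lower, where 21.0% of all probe sets did, 11.0% higher and 10.0% lower. The 8 lower ones were the 5 of ETV1, 1 of ELF3 and 2 of ETV5. Those of ETV5 count as lower through differences close to 0: 203349_s_at was at 0.00 after rounding in letter C, and 230102_at at -0.01 in letter D. Of the 32, 28 lay in the upper 60% of signals, including at least 1 probe set of every member.

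By their patterns over the 8 arrays, the genes most like ETS2 201329_s_at were COL1A1, a fibrillar collagen chain (Pearson r = 0.967), ARHGEF18 (0.962) and LINC01511 (0.959). Those most like ETV1 221911_at were CREBRF (0.985), TMEM87B (0.984) and HOXB3 (0.972). These correlations are descriptions over 8 arrays that share the same treatment difference, taken as the highest of 19775 genes.

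Of the other ETS family genes 17 of 18 listed were measured, and 0 passed in either fit (limma, adjusted over genes). In the fit without the letter 0.576% of all genes passed, 70 higher and 44 lower, and in the block fit 3.57%. Their median log2 change was 0.05, against 0.01 over all genes. No member of this list had an unadjusted p under 0.05 in the fit without the letter. EHF, an epithelial relative of ELF3, had the smallest p, at 9.39 ± 0.27 untreated and 8.94 ± 0.57 with TGFβ (SD, n = 4). It was lower in all 4 letters, by -0.45 ± 0.25 in the mean (limma adjusted p = 0.737, and 0.0616 with the block). In the block fit without letter A, EHF passed (limma adjusted p = 0.0107), as did 1304 of all 19775 genes. It was the only gene of this list to pass in any fit run. FLI1, which adjoins ETS1 on chromosome 11 with 0 protein-coding genes between them in RefSeq, was 4.23 ± 0.06 and 4.35 ± 0.02 (0.11 ± 0.08, adjusted p = 0.826). ERG, which adjoins ETS2 on chromosome 21 in the same way, was 3.09 ± 0.13 and 3.25 ± 0.25.

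Of 30 partners and regulators of ETS factors 22 were measured, with a median of -0.01. In the fit without the letter 1 rose and 0 fell, where 0.576% of all genes passed. The gene that rose was MRTFA, an actin-regulated cofactor that competes with ternary complex factors such as ELK3 for SRF. It went from 6.95 ± 0.16 to 7.68 ± 0.14, by 0.73 ± 0.11 (SE, limma adjusted p = 0.0178, and 0.00112 with the block). Of its 5 probe sets 4 had this sign. MRTFA passed in 3 of the 8 fits that leave out 1 array, and not without untreated array C or D or TGFβ array B, C or D (highest adjusted p 0.0889). In the block fit 1 gene of this list passed, as it did without both arrays of B, C or D, and 3 passed without those of letter A. Of all 19775 genes 705 passed in the block fit, 1304 without letter A, and 288, 321 and 356 without B, C and D. SRF itself was 8.46 ± 0.04 and 8.67 ± 0.22 and passed in neither fit.

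ERK output genes are transcripts that follow ERK activity, many of them feedback inhibitors. All 19 were measured, with a median of -0.02. In the fit without the letter 0 rose and 2 fell, where 0.576% of all genes passed. SPRY1, which restrains growth factor receptor signalling, fell from 8.44 ± 0.20 to 6.72 ± 0.40 (-1.72 ± 0.18, limma adjusted p = 0.0021) and passed in all 8 fits that leave out 1 array. SPRED2, an inhibitor of RAF activation, fell from 9.23 ± 0.18 to 8.43 ± 0.12 (-0.80 ± 0.11, adjusted p = 0.0102), but missed the threshold without untreated array C or D (highest adjusted p 0.0529). With the block 4 fell and 2 rose, where 2.18% of all genes passed lower and 1.39% higher. Added below 0 were DUSP4 (-0.53 ± 0.11, SE without the letter, limma adjusted p = 0.08, and 0.0201 with the block) and SPRED1 (-0.48 ± 0.12, 0.165, and 0.011 with the block). Added above 0 were EPHA4 (1.60 ± 0.47, 0.264, and 0.000303 with the block) and LIF (0.45 ± 0.10, 0.115, and 0.0177 with the block). These genes are named because of their calls with the block. Without both arrays of letter A 7 genes of this list passed, and without those of B, C or D 3 each. Of all 19775 genes 1304, 288, 321 and 356 passed without A, B, C and D. DUSP6, a phosphatase that acts on ERK, was 11.69 ± 0.11 and 11.50 ± 0.28 and passed in neither fit.

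Of 30 genes known as targets of ETS factors 29 were measured, with a median of 0.09. In the fit without the letter 1 rose and 0 fell, where 0.576% of all genes passed. HMOX1, which degrades haem, rose from 6.78 ± 0.15 to 7.92 ± 0.40, by 1.14 ± 0.18 (limma adjusted p = 0.0201, and 0.000501 with the block). It passed in 2 of the 8 fits that leave out 1 array, those without untreated array B and without TGFβ array A (highest adjusted p of the others 0.0922). With the block 3 rose and 1 fell, where 1.39% of all genes passed higher and 2.18% lower. Beside HMOX1, PLAU, the urokinase protease, rose (1.05 ± 0.26, SE without the letter, limma adjusted p = 0.15, and 0.000398 with the block). MCL1, an inhibitor of apoptosis, also rose (0.36 ± 0.18, 0.685, and 0.0383 with the block). TGFBR2, the type II TGFβ receptor, fell (-0.51 ± 0.14, 0.223, and 0.00678 with the block). Genes beside HMOX1 are again named because of these calls. Without both arrays of letter A, B, C or D, 5, 2, 3 and 3 genes of this list passed, against 1304, 288, 321 and 356 of all 19775 genes. MMP1, a collagenase gene with ETS sites in its promoter, was 8.84 ± 0.16 and 8.82 ± 0.17.

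**Figure D4:**
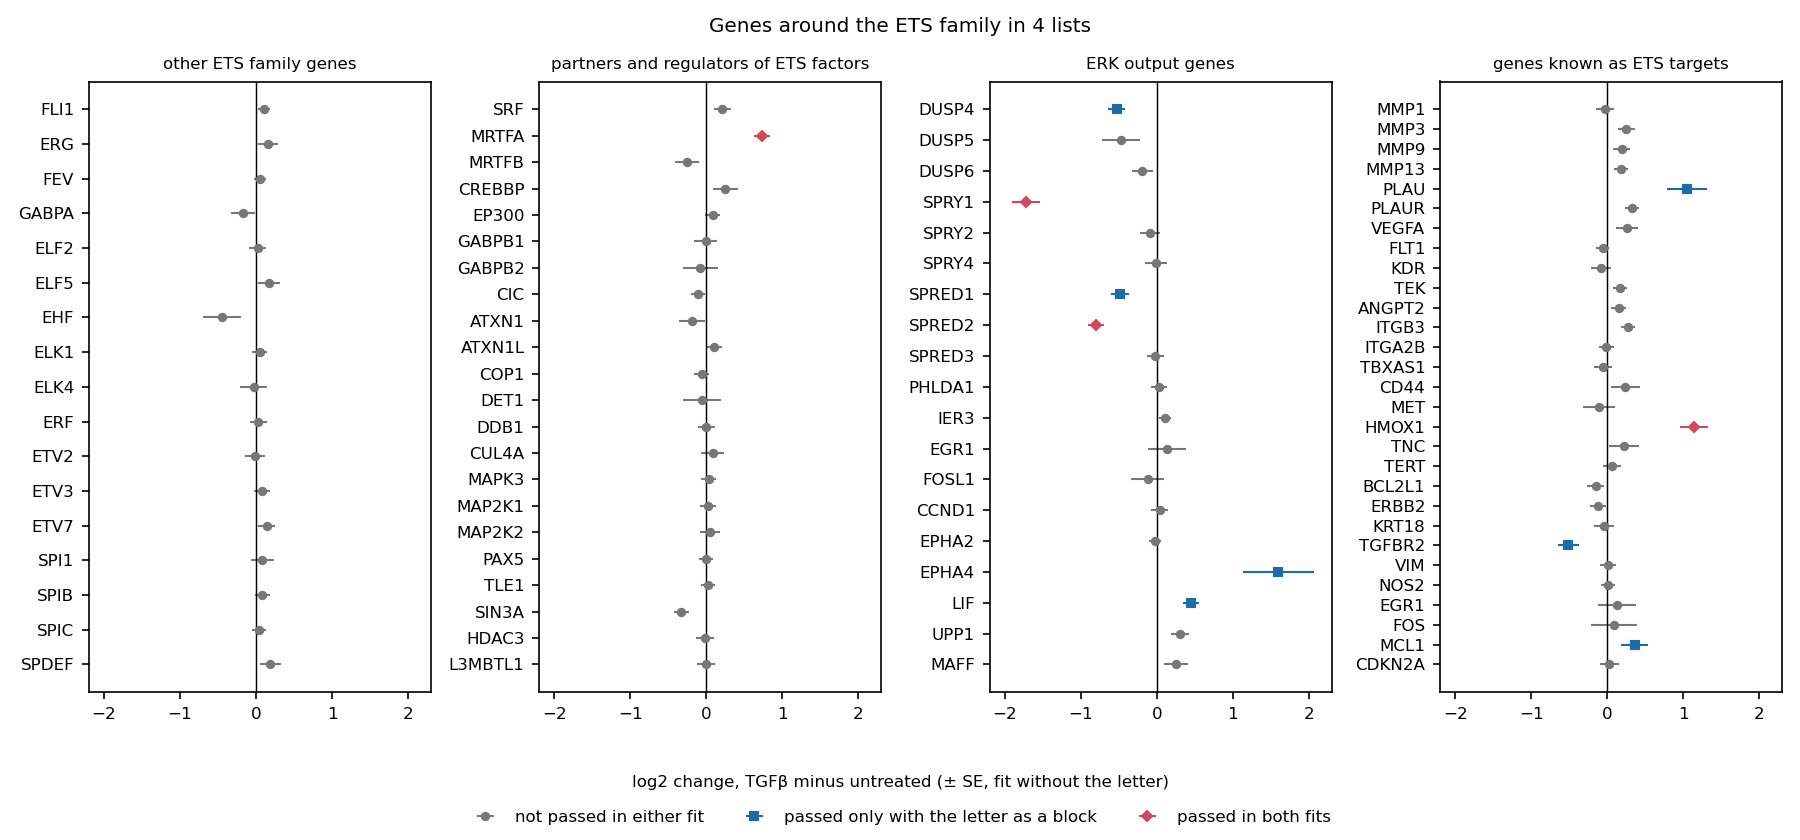
Fitted log2 change (x axis, TGFβ minus untreated, bars SE of the fit without the letter) of the measured genes in 4 lists; red diamonds passed in both fits, blue squares with the letter as a block, grey circles in neither. The other ETS genes lie between -0.45 and 0.19, all grey, and the red points are MRTFA, SPRY1, SPRED2 and HMOX1.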

How the data were processed

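The deposited table holds 1 value per probe set on each of 8 Affymetrix arrays. The submitters' processing notes name RMA, by which the authors correct background, normalize arrays together and summarise probes. The scale of the deposited values, log2, was inferred from their range, since no header states it. The RMA version, and whether other arrays were normalized with these, is not given in the sources used here. There are no detection calls.

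Of 54613 probe sets tested, Affymetrix controls left out, 41091 name 1 gene in the platform annotation, 1801 several and 11721 none. A gene was represented by its probe set of highest mean signal. Groups came from the labels. The test was limma 3.58.1 (lmFit, eBayes, two-sided; R 4.3.3), with Benjamini-Hochberg adjustment and a threshold of 0.05; intervals are 95% intervals of the fit without the letter, without adjustment. The fits were also run on simulated data, and no result here rests on that run.

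In a further fit the letter was entered as a replicate block, with same-letter arrays taken as pairs. The labels give the letters without saying what they stand for, so this pairing is an assumption. Same-letter arrays deviated together from their group means over all probe sets (r = 0.41, 0.59, 0.26 and 0.24 for A to D). Other-letter values ran from -0.40 to 0.28. Untreated C correlated best with TGFβ D (0.28) and untreated D with TGFβ C (0.27), so for C and D the data do not single out the same-letter partner. The member calls of the block fit rest on this pairing.

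Members, lists, tests and alternatives were chosen with earlier results of these data known. Named genes are all members, from each of the 4 gene lists up to 6 that passed or the 2 with the smallest p, the 3 genes most correlated with each of the 2 members of smallest p, and SMAD7. SRF, ERG, DUSP6, MMP1, the cell type markers named and the genes named for a call in the block fit were chosen after their values were seen. List genes without a value were not analysed here.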

Additional observations from a re-analysis of the deposited data

Results flagged for a closer look

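In 9 of 70 groups of 4 checked, 1 array stood far from the other 3; chance gives about 1 in 20. TGFβ array A was that array in 6 of them: ETS2 201329_s_at at 7.05 (others 7.34 to 7.39), ETV5 216375_s_at at 6.33 (6.78 to 6.82), ETV6 235056_at at 6.38 (7.22 to 7.34), SMAD7 at 7.28 (7.89 to 7.99), and the 3′ minus 5′ control signal of ACTB at 1.68 (0.63 to 0.78) and of GAPDH at 0.54 (0.07 to 0.10). The part of that array's RNA in its member signals was not tested. The others were ELF1 212418_at on TGFβ array B at 8.45 (7.95 to 7.99), ETV5 231083_at on untreated array D at 4.10 (3.86 to 3.90) and ETV6 205585_at on untreated array B at 4.98 (5.45 to 5.49).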

How the results depend on the processing

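The number of member probe sets that passed was 0 with array medians subtracted, a second quantile normalization, a robust and trended prior, the upper 60% of signals and without probe sets marked s or x; with the replicate block by letter it was 8 (4 genes); 1 gene, ETS2, passed after quantile normalization again. With arrays left out, singly without the block or by letter within it, 0 to 7 probe sets and 0 to 4 genes passed; singly, only the fit without TGFβ array A gave calls, 2 probe sets and 1 gene. The fits by letter were added after seeing the data. Over all probe sets 140 passed, 954 with the block and 33 to 1416 with arrays left out; over all genes 114, 705 and 46 to 1304. MRTFA did not pass as the mean of its probe sets. Subtracting medians or quantile normalization again shifted the median change by -0.01. No alternative turned the sign of a probe set of ETS1, ETV1, ELK3 or ELF1, or of ETS2 201328_at and 201329_s_at.

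Signs turned on probe sets close to 0. ELF4 31845_at and ETV5 231083_at were at 0.00 with medians subtracted, and the latter at -0.02 after quantile normalization again. With arrays left out, the ranges were -0.08 to 0.05 for ELF3 229842_at, -0.16 to 0.07 and -0.07 to 0.12 for ELF4 203490_at and 31845_at, -0.34 to 0.08 and -0.11 to 0.16 for ETV4 1554576_a_at and 211603_s_at, and -0.24 to 0.10 and -0.02 to 0.07 for ETV5 216375_s_at and 231083_at. For ETV6 they were -0.12 to 0.31 on 205585_at, -0.06 to 0.13 on 225764_at, -0.08 to 0.27 on 235056_at, -0.27 to 0.33 on 239364_at and -0.05 to 0.04 on 239740_at. The causes were not tested. With 4 arrays per group and no detection calls, changes of probe sets with low signal cannot be told from background.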
